A study of Macaca mulatta with 2 samples.

Results

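The genes described here encode inhibitors of axon regrowth that are carried by central myelin, together with the receptors through which axons read them. They comprise 7 genes chosen by symbol, *RTN4*, *OMG*, *RTN4R*, *RTN4RL1*, *RTN4RL2*, *LINGO1* and *TNFRSF19*, and all 7 were found among the 16684 genes of the deposited table. The data were bulk RNA-seq of optic nerves from wild-type, untreated rhesus macaques (*Macaca mulatta*), with 1 condition and 2 libraries named Rep1 and Rep2. The methods describe the nerves as discarded postmortem tissue from a male aged 12 years, whereas the series description speaks of 2 animals, so the libraries are nerves of either 1 or 2 animals. Where both came from 1 animal, the spread between them leaves out the variation between animals. No control or treated group exists, so the comparisons are between genes and between the libraries, and no p-value was computed.

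Central axons of mammals regrow poorly after injury, and part of this has been traced to proteins on the surface of oligodendrocyte myelin. The best known are Nogo, encoded by *RTN4*, the oligodendrocyte myelin glycoprotein, encoded by *OMG*, and the myelin-associated glycoprotein, encoded by *MAG*. All of them can bind the Nogo receptor, encoded by *RTN4R*, a leucine-rich repeat protein tethered to the membrane by a lipid anchor, which signals through partners that span the membrane such as *LINGO1*, *TNFRSF19* (also called TROY) and *NGFR* (the p75 neurotrophin receptor). The signal activates the small GTPase RhoA and its kinases, which collapse the growth cone. The optic nerve is a classic tissue for this system, because the axons of retinal ganglion cells run through it while their cell bodies, where most of their mRNA is made, lie in the retina.

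The 3 Nogo receptor genes are paralogs, and stretches of their coding sequence are shown first because reads shared between them could not be assigned to one gene. Sequences are from the RefSeq annotation of Mmul_10, written 5′ to 3′ on the coding strand. In the first pair below the capitals mark the longest run that *RTN4R* and *RTN4RL1* share, of 28 bases, and in the second pair the longest run that *RTN4RL1* and *RTN4RL2* share, of 21 bases.
RTN4R, chr10:32386754-32386813, plus strand: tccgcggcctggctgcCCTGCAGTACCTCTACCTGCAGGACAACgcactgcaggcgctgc
RTN4RL1, chr16:1785722-1785781, minus strand: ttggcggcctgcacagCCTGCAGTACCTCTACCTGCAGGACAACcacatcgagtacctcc
RTN4RL1, chr16:1785872-1785931, minus strand: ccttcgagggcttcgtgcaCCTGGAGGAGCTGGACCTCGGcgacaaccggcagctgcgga
RTN4RL2, chr14:16089734-16089793, minus strand: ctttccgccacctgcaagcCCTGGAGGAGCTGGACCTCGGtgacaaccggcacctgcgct
Each of these stretches lies within a single coding exon. *RTN4R* and *RTN4RL2* shared at most 16 bases in a row. Over the whole coding sequence the identity was 59.5% for *RTN4R* and *RTN4RL1*, 57.7% for *RTN4R* and *RTN4RL2*, and 61.7% for *RTN4RL1* and *RTN4RL2*. No stretch of 50 bases from the annotated transcripts of any of the 7 genes was found in the same orientation in a transcript of another annotated gene. Reverse complements were not searched, and exons of a gene on the opposite strand overlap 421 exonic bases of *LINGO1*. Exactly matching reads of 50 bases or longer therefore belong to 1 gene among annotated transcripts if their strand is known.

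*OMG* is an unusual gene, since it lies inside an intron of *NF1*, the neurofibromatosis gene, on the opposite strand. It spans 27543250 to 27545955 on the minus strand of chromosome 16 and has 2 exons, and its whole length falls in an *NF1* intron of 72816 bases, the 35th, 36th or 37th depending on the *NF1* transcript. The first 60 coding bases are given because unspliced *NF1* RNA would carry their reverse complement, with the start codon in capitals.
OMG, chr16:27544871-27544930, minus strand: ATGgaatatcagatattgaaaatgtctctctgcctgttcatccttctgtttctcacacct
The exons of *OMG* and *NF1* do not overlap. The methods describe libraries built from fragmented cDNA with a DNA library kit and name no step that keeps strand. The sources used here do not say whether counting used strand. Without strand, a read from the *NF1* intron that falls on an *OMG* exon cannot be told apart from an *OMG* read.

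**Figure D1:**
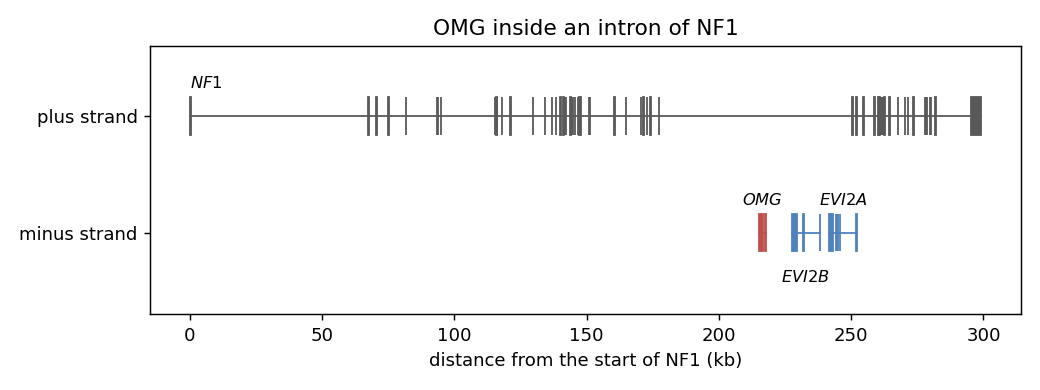
Exons (boxes) of NF1 on the plus strand and of OMG, EVI2B and EVI2A on the minus strand of Mmul_10, against the distance from the start of NF1 in kb. OMG and EVI2B lie wholly within the same NF1 intron, and EVI2A reaches past its end.

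The values are TPM (transcripts per 1000000), the reads of a gene per length as a share of all such values in the library. Levels can thus be compared between genes as far as the lengths used, which are not given, are right. The libraries differed in depth and content. Rep1 was shallower, since 17.2 reads of Rep2 had the weight of a single read of Rep1, and the number of genes at 0 was 6425 in Rep1 but 2082 in Rep2. The median of the log2 ratios of Rep1 to Rep2 was -1.19 over genes above 0 in both. All 9 listed oligodendrocyte markers and all 6 astrocyte markers were above 0 in both libraries. All 15 were lower in Rep1, as were 75.9% of all genes above 0 in either library. The 9 neuron markers had a summed level of 2082 TPM in Rep1 against 149 TPM in Rep2, most of it from *SNAP25* and *SYT1*, without which the sums were 192 and 132 TPM, and their median levels were 7.48 and 4.99 TPM. The 8 photoreceptor markers summed to 3171 and 5.67 TPM, and most of the Rep1 sum came from *GNAT1*, at 2763 TPM. Read numbers given below are the smallest whole numbers that fit a gene's values in both libraries, so they are lower bounds, and the total depth is unknown.

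*RTN4*, the gene of Nogo, had the highest mean of the 7 in TPM as deposited, but not when the libraries were scaled by the median of ratios, where *RTN4RL2* had a mean of 114 TPM and *RTN4* 98.6 TPM. It stood at 63.1 TPM in Rep1 against 154 TPM in Rep2, a mean of 108 ± 64.2 TPM (SD, n = 2 libraries), resting on at least 15 and 629 reads. Ranked by mean, this was percentile 89.8 of the 14693 genes that had a value above 0 in either library. Rep2 was thus the higher library, by 1.27 on the log2(TPM + 1) scale, which is close to the general shift between the libraries. Once both libraries were scaled by the median of ratios, the difference of Rep1 from Rep2 was -0.09. Among all 10168 genes above 0 in both libraries, the 3 closest to *RTN4* in log2(TPM + 1) over the 2 libraries were *AOX1*, *SCAMP3* and *NUCB1*, at Euclidean distances of 0.014, 0.053 and 0.091.

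The *RTN4* gene runs from 53618879 to 53699417 on the plus strand of chromosome 13. It is known for several protein forms, of which Nogo-A carries an additional inhibitory region and is the form typical of oligodendrocytes, whereas all forms share the C-terminal reticulon domain with its Nogo-66 loop. The annotation holds 4 transcripts with coding sequences of 3579, 2958, 1119 and 597 bases. Of the 6378 exonic bases, 23.6% are common to all 4, and of the coding bases 15.6%. The table gives 1 value per gene, so the forms were not separated, and the TPM depends on which of these lengths the authors divided by, which is not given in the sources used here.

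*OMG* differed from *RTN4* in which library was higher. It was at 57.5 TPM in Rep1 against 16.8 TPM in Rep2, a mean of 37.2 ± 28.8 TPM (SD, n = 2) at percentile 75.2, resting on at least 40 and 201 reads. Rep1 was higher by 1.72 on the log2(TPM + 1) scale and by 2.86 with median-of-ratios scaling. *RTN4* exceeded *OMG* 1.10 times in Rep1 and 9.14 times in Rep2. Although *OMG* is named for the oligodendrocyte, every one of the 9 oligodendrocyte markers went the other way, with a median difference of -2.40. Over all genes the median difference was -1.07, and 75.9% were lower in Rep1. *OMG* stood at 65.1% of the median oligodendrocyte marker in Rep1 and at 3.86% of it in Rep2. It is also known to be expressed by neurons. *NF1*, its host gene, was at 54.3 TPM in Rep1 against 29.7 TPM in Rep2, a difference of 0.85 in the same direction. *EVI2A* and *EVI2B*, the other genes nested in *NF1*, were at 2.13 and 0 TPM in Rep1 and at 24.5 and 1.12 TPM in Rep2, opposite to *OMG*. The part of *NF1* RNA or of neuronal RNA in the *OMG* values was not tested. The 3 genes nearest to *OMG* by level were *PEX13*, *LONP2* and *PHACTR1*, at distances of 0.062, 0.083 and 0.093.

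**Figure D2:**
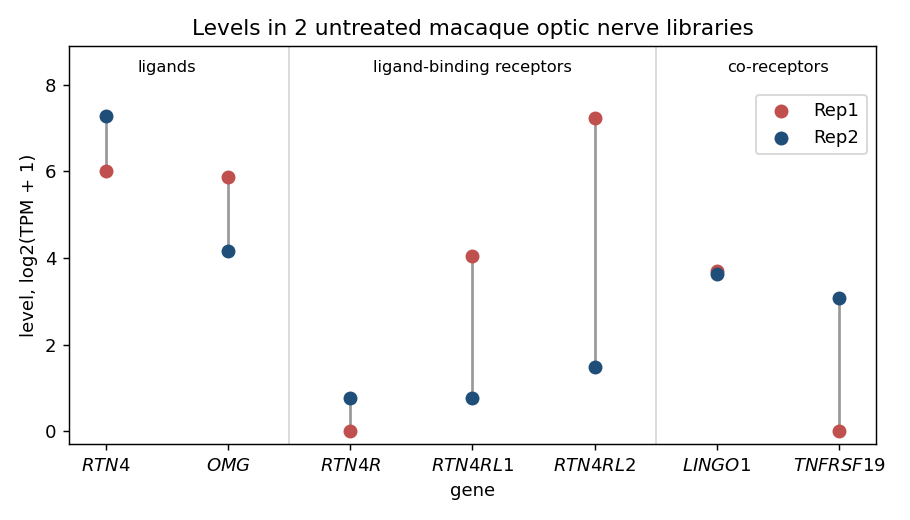
Level of each gene as log2(TPM + 1) in Rep1 (red) and Rep2 (blue), grouped by role, with a line joining the libraries. RTN4, OMG and LINGO1 stand above 3 in both libraries, RTN4RL1 and RTN4RL2 are near the bottom in Rep2 and much higher in Rep1, and RTN4R and TNFRSF19 lie at 0 in Rep1.

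Among the ligand-binding receptors, the classical Nogo receptor was the lowest of the 7 genes on average. *RTN4R* (chromosome 10, 32360119 to 32388022, plus strand) was at 0 in Rep1 but reached 0.704 TPM in Rep2. Of the 200 genes nearest to it in Rep2, 70.0% were also listed at 0 in Rep1, so the zero was usual at this level and does not show absence of the transcript.

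The paralogs *RTN4RL2* and *RTN4RL1* showed wide gaps between the libraries. On the log2(TPM + 1) scale these exceeded the gaps of the other 5 genes, whereas with a pseudocount of 0.1 *TNFRSF19*, at -6.23, had a wider gap than *RTN4RL1*, at 4.29. *RTN4RL2* (chromosome 14, 16080047 to 16097189, minus strand), which encodes a receptor for the myelin-associated glycoprotein, was at 150 TPM in Rep1 against 1.80 TPM in Rep2. The mean of 76.1 ± 105 TPM (SD, n = 2) therefore describes neither library. The difference was 5.75 on the log2(TPM + 1) scale, with at least 97 reads in Rep1 and 20 in Rep2. *RTN4RL1* (chromosome 16, 1783088 to 1878229, minus strand), known as a receptor for chondroitin sulphate proteoglycans, was at 15.5 TPM in Rep1 against 0.698 TPM in Rep2, with a mean of 8.11 ± 10.5 TPM (SD, n = 2). Its difference was 3.28, resting on at least 57 and 44 reads. Both were thus below 2 TPM in Rep2, like *RTN4R*, and far above it in Rep1. Over all genes the 95th percentile of this difference was 2.69, below both values.

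The summed level of the 3 receptors was 166 TPM in Rep1 against 3.21 TPM in Rep2. *RTN4RL2* made up 90.6% of it in Rep1 and 56.3% in Rep2. *RTN4* stood at 0.380 times this sum in Rep1 and at 48.0 times in Rep2, and it was above *RTN4R*, the receptor known for Nogo, in both libraries. Some neuron and photoreceptor markers were higher in Rep1, whereas 75.9% of all genes were lower. Of the 8 neuron markers above 0 in either library, 5 were higher in Rep1 and 3 lower. On the log2(TPM + 1) scale 3 were at least 2-fold higher, against 14.8% of all genes. These were led by *SNAP25*, at 1121 TPM in Rep1 against 4.99 TPM in Rep2. *SLC17A6*, a transporter gene of retinal ganglion cells, was listed at 0 in both. *NEFL*, a neurofilament gene, was at 3.63 TPM in Rep1 against 3.65 TPM in Rep2. Of the 8 photoreceptor markers, 7 were higher in Rep1, led by *GNAT1* at 2763 and 1.56 TPM, and *CRX* was listed at 0 in Rep2. On the log2(TPM + 1) scale 6 were at least 2-fold higher, against 14.8% of all genes. *PDE6A* and *RCVRN* were at 3.15 and 2.80 TPM in Rep1 against 0.0713 and 0.912 TPM in Rep2. *SAG* went the other way, at 1.74 TPM in Rep1 against 1.82 TPM in Rep2. The part of retinal or neuronal RNA in the receptor values was not tested. In Rep2 alone, *RTN4RL2* and *RTN4RL1* lay at percentiles 23.6 and 14.7. In bulk RNA, a change in the number of cells of a type cannot be told apart from a change in RNA per cell.

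The co-receptors differed from each other. *LINGO1* (chromosome 7, 54845121 to 55050450, minus strand), which joins the Nogo receptor complex and also restrains the differentiation of oligodendrocytes, was at 11.9 TPM in Rep1 against 11.3 TPM in Rep2. Its mean of 11.6 ± 0.440 TPM (SD, n = 2) lay at percentile 53.6, and the Rep1 value rested on as few as 7 reads. The difference of 0.07 turned to 1.17 when both libraries were scaled by their median of ratios, so the near equality holds for TPM as deposited and not on that scale. In the RefSeq annotation, a protein-coding gene on the opposite strand overlaps 7.74% of the exonic bases of *LINGO1*. That gene was not found under its RefSeq symbol among the deposited genes. *TNFRSF19* (chromosome 17, 3476109 to 3581109, plus strand), a member of the tumour necrosis factor receptor family, was at 0 in Rep1 but reached 7.43 TPM in Rep2. Of the 200 genes nearest to it in Rep2, 24.5% were listed at 0 in Rep1, so the zero was less common at this level than at that of *RTN4R*. It does not show absence of the transcript either.

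Compared as a group, 2 of the 7 genes (*RTN4* and *TNFRSF19*) were at least 2-fold lower in Rep1 on the log2(TPM + 1) scale, against 51.3% of all 14693 genes. The 3 that were at least 2-fold higher in Rep1 were *OMG*, *RTN4RL1* and *RTN4RL2*, against 14.8% of all genes. After scaling by the median of ratios, only *TNFRSF19* was lower by this measure, against 33.8%, and *LINGO1* joined the higher genes to make 4, against 23.7%. With Rep1 scaled instead to the oligodendrocyte markers, *TNFRSF19* was again the one lower gene, against 23.1%, and *RTN4* joined the higher genes to make 5, against 36.8%. The median difference of the 7 was 0.07, and that of all genes -1.07. Of the 7, 2 were listed at 0 in Rep1, against 30.2% of all genes. The genes were few and chosen by name, and these counts describe 2 libraries only.

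**Figure D3:**
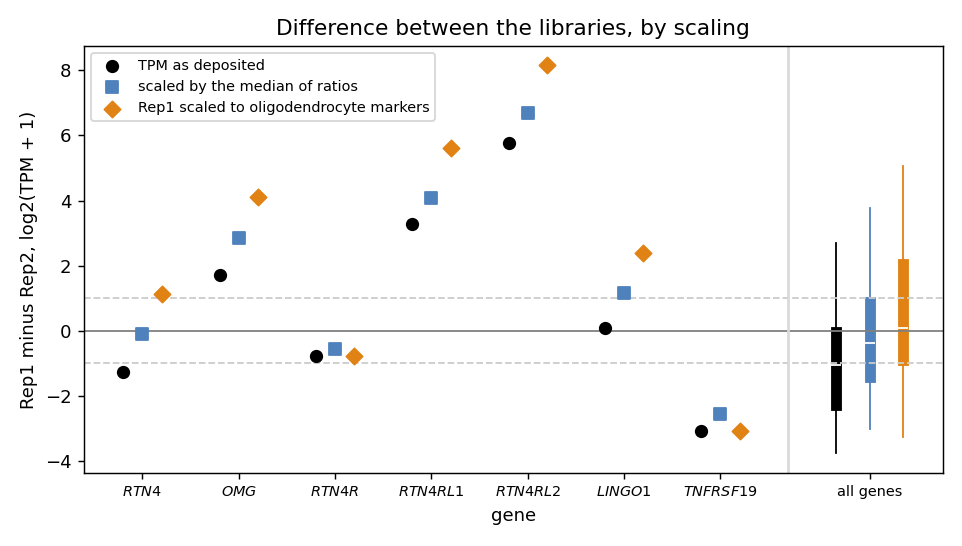
Difference of Rep1 from Rep2 on the log2(TPM + 1) scale for each gene, with TPM as deposited (circles), scaled by the median of ratios (squares), and with Rep1 scaled to the oligodendrocyte markers (diamonds). On the right, thick bars span the quartiles and thin lines the 5th to 95th percentile over 14693 genes, with the median in white. RTN4RL2 and RTN4RL1 lie above the thin line of their scale under all 3 scalings.

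The order of the levels depended on the library. By the mean it ran *RTN4*, *RTN4RL2*, *OMG*, *LINGO1*, *RTN4RL1*, *TNFRSF19*, *RTN4R*. In Rep2 it ran *RTN4*, *OMG*, *LINGO1*, *TNFRSF19*, *RTN4RL2*, *RTN4R*, *RTN4RL1*, and in Rep1 *RTN4RL2* came before *RTN4*, *OMG*, *RTN4RL1* and *LINGO1*, with the remaining pair at 0. Of the 21 pairs, 13 stood in the same order in both libraries, the pair at 0 in Rep1 not being counted among them. *RTN4* was above *OMG*, *LINGO1*, *RTN4RL1*, *TNFRSF19* and *RTN4R* in both, and *OMG* was above *LINGO1*, *RTN4RL1*, *TNFRSF19* and *RTN4R* in both. An order between genes also depends on the gene lengths behind the TPM, which are not given. The annotated *RTN4* transcripts run from 1926 to 4522 bases, while *RTN4* exceeded *OMG* only 1.10 times in Rep1.

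The spread of a single library was taken from the 200 genes nearest in level to each gene. Of the 6 neighbouring pairs in the order of the means, 5 differed by less than 1 such SD on the log2(TPM + 1) scale. *OMG* and *LINGO1* differed by 0.842 SDs, *LINGO1* and *RTN4RL1* by 0.657, *RTN4RL1* and *TNFRSF19* by 0.460, and *TNFRSF19* and *RTN4R* by 0.941. *RTN4RL2* and *OMG* differed by 0.408 SDs, with *OMG* the higher on this scale. *RTN4* and *RTN4RL2* differed by 1.44 SDs, yet Rep1 had them in the opposite order. *RTN4* stood above *OMG* by 1.07 SDs and above *LINGO1* by 1.86 SDs.

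Among the other ligands of the Nogo receptor, *MAG* had the highest mean and *OLFM1* the highest level in Rep1. *MAG*, the gene of the myelin-associated glycoprotein, was at 116 TPM in Rep1 against 907 TPM in Rep2. *MAG* exceeded *RTN4* 1.84 times in Rep1 and 5.90 times in Rep2. All 5 genes of this list were found, and 2 of them, *MAG* and *TNFSF13B*, were at least 2-fold lower in Rep1 on the log2(TPM + 1) scale, against 51.3% of all genes. In plain TPM, *LGI1* and *CRTAC1* were also lower by 2.27 and 2.15 times. *OLFM1*, which encodes olfactomedin 1, a secreted protein that binds the Nogo receptor, was at 495 TPM in Rep1 against 28.6 TPM in Rep2, the only gene of the list at least 2-fold higher in Rep1, against 14.8% of all genes. *LGI1*, encoding a secreted synaptic protein, was at 2.87 and 6.52 TPM. *CRTAC1*, which encodes LOTUS, an antagonist of the Nogo receptor, was at 2.72 and 5.86 TPM, both resting on as little as 1 read in Rep1. *TNFSF13B*, the gene of the B cell factor BAFF, was at 0 in Rep1 but reached 2.01 TPM in Rep2. The median level of the list was 2.87 TPM in Rep1 against 6.52 TPM in Rep2, beside 2.09 and 7.93 TPM over all listed genes. Their median difference of -0.96 was 0.01 under median-of-ratios scaling.

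Of 12 other receptors and co-receptors, 10 were listed in the table, *LILRB2* and *ADGRB1* not being analysed here. *NGFR*, the alternative to *TNFRSF19* in the receptor complex, was at 2.15 TPM in Rep1 against 2.90 TPM in Rep2. The paralogs of *LINGO1* were lower than *LINGO1* in both libraries, with *LINGO2* at 1.67 and 0.121 TPM, *LINGO4* at 0.585 and 0.425 TPM, and *LINGO3* listed at 0 in both. Levels above 50 TPM in both libraries were seen for *LRP1*, an endocytic receptor that also binds the myelin-associated glycoprotein, at 67.0 and 136 TPM, and *TSPAN3*, a tetraspanin linked to the Nogo-A-specific region, at 69.5 and 262 TPM. *S1PR2*, a receptor for that region, was at 0 in Rep1 but reached 0.637 TPM in Rep2. The heparan sulphate carriers *SDC3* and *SDC4* were at 0.911 and 0 TPM in Rep1 and at 5.88 and 15.5 TPM in Rep2. *CNTNAP1*, a protein gene of the paranode, was at 0 in Rep1 but reached 1.57 TPM in Rep2. Of the 9 above 0 in either library, 5 were at least 2-fold lower in Rep1 on the log2(TPM + 1) scale and 1, *LINGO2*, higher, against 51.3% and 14.8% of all genes, with a median difference of -1.01. That median was -0.51 under median-of-ratios scaling and 0.49 with Rep1 scaled to the oligodendrocyte markers.

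The intracellular part of the pathway had a higher median level than its receptors, at 290.0 TPM in Rep1 against 200.2 TPM in Rep2. The medians were 15.5 and 0.704 TPM for the 3 ligand-binding receptors, and 0.748 and 2.24 TPM for the other receptors and co-receptors. Single genes differed from this order. In Rep1 *RTN4RL2*, at 150 TPM, was above *ARHGDIA*, *KALRN*, *LIMK2* and *LIMK1*. *RHOA* was at 2689 TPM in Rep1 against 1352 TPM in Rep2, and *CFL1*, encoding the actin-severing protein cofilin, at 2168 and 1243 TPM. The RhoA kinase genes were both higher in Rep1, *ROCK1* at 877 and 160 TPM and *ROCK2* at 330 and 115 TPM. *RAC1*, a GTPase that promotes protrusion, was at 285 and 1171 TPM, and *ARHGDIA*, whose product holds RhoA inactive, at 20.2 and 217 TPM. *DPYSL2*, the gene of the microtubule regulator CRMP2, was at 153 and 581 TPM. *WNK1*, a kinase that binds LINGO1, was at 383 and 388 TPM, and *PPP1R12A*, the myosin phosphatase subunit that ROCK acts on, at 295 and 183 TPM. *LIMK2*, a kinase of cofilin, was at 6.41 and 24.6 TPM, its paralog *LIMK1* was at 0 in Rep1 but reached 1.67 TPM in Rep2, and *KALRN*, the gene of kalirin, was at 14.0 and 3.72 TPM. Of the 12 genes, 5 were at least 2-fold lower in Rep1 on the log2(TPM + 1) scale and 3 higher, against 51.3% and 14.8% of all genes, with a median difference of 0.33. Under median-of-ratios scaling it was 1.52, beside -0.38 over all genes.

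**Figure D4:**
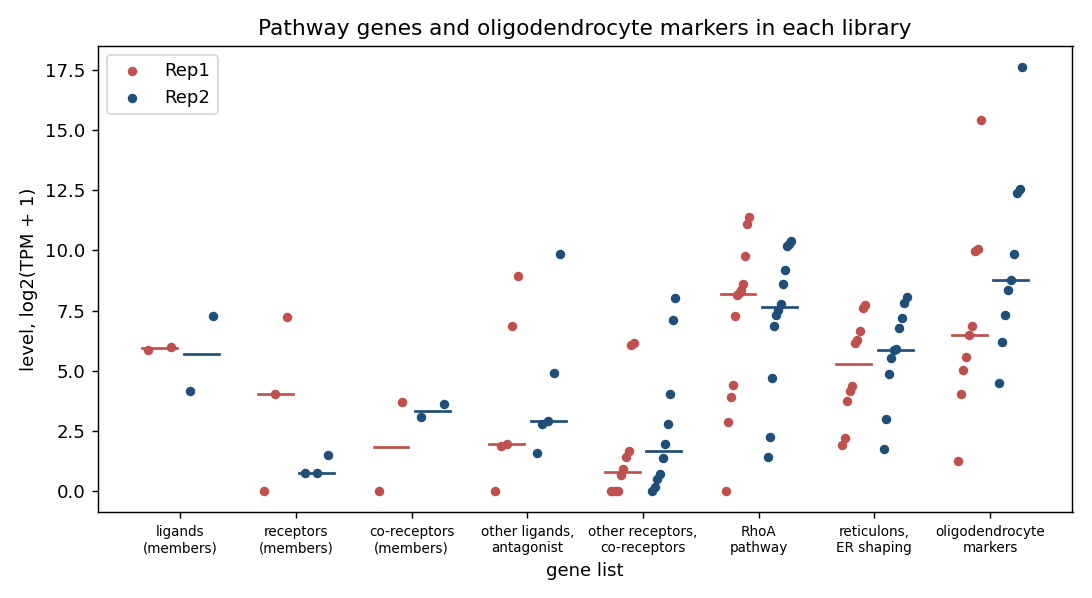
Level of each gene as log2(TPM + 1) in Rep1 (red) and Rep2 (blue) for the genes of the text (first 3 columns, "members"), the rest of the pathway and the oligodendrocyte markers, with lines at the medians. The ligand-binding receptors of Rep2 all lie below 2, whereas the median of the RhoA pathway lies above 7 in both libraries.

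*RTN4* is also a reticulon, one of a family of proteins that bend the membrane of the endoplasmic reticulum into tubules. In Rep2 it was the most abundant of the 4 reticulon genes, with 44.3% of their summed TPM, next to 41.9% for *RTN3*, 13.1% for *RTN1* and 0.684% for *RTN2*. In Rep1 *RTN4* took 25.0%, below *RTN3* at 39.5% and *RTN1*, a reticulon typical of neurons, at 30.5%. *RTN3* was at 99.6 TPM in Rep1 against 146 TPM in Rep2, *RTN1* at 76.9 and 45.4 TPM, and *RTN2* at 12.4 and 2.38 TPM. *RTN4IP1*, whose product binds Nogo in mitochondria, was at 2.80 and 6.90 TPM. Reticulon coding sequences shared runs of at most 14 bases.

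The other genes that shape the endoplasmic reticulum spanned a wide range around *RTN4*. *REEP5*, a hairpin protein gene like the reticulons, was at 70.5 and 227 TPM, and *ARL6IP1*, a further hairpin protein gene, at 209 and 267 TPM. *CKAP4*, a marker of sheet-like endoplasmic reticulum, was at 16.6 and 108 TPM. The atlastins, GTPases that fuse the tubules, were at 19.9 and 58.2 TPM for *ATL1*, 192 and 56.8 TPM for *ATL2*, and 3.60 and 28.4 TPM for *ATL3*. *LNPK* was not analysed here. Of the 10 listed genes of this group, 5 were at least 2-fold lower in Rep1 on the log2(TPM + 1) scale and 2, *RTN2* and *ATL2*, higher, close to the 51.3% and 14.8% of all genes, with a median difference of -0.80. This median turned to 0.27 under median-of-ratios scaling and to 1.43 with Rep1 scaled to the oligodendrocyte markers.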

How the data were processed

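The authors extracted total RNA with an RNA integrity number above 8, amplified it with the low-input SMARTer v4 kit, trimmed reads with Trim Galore 0.6.6 below a Phred score of 30, aligned them with STAR 2.7.1a (genome Mmul_10, RefGene annotation), and counted them per gene by featureCounts 1.5.3. The values deposited by the authors are TPM, computed by them in R 4.2.0. Gene lengths, strand use and treatment of multiply aligned reads are not given in the sources used here. Nothing pairs Rep1 and Rep2 with single samples, so both are replicates of the one condition.

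Levels were used as deposited. Differences are log2(TPM + 1) in Rep1 minus that in Rep2, a scale on which low genes appear to change less than they do. A single-library SD was estimated from the Rep1 minus Rep2 values of the 200 nearest genes, about 0. Smallest read numbers came from the ratio of a gene's values (tolerance 1e-12), giving whole numbers for 99.9% of genes above 0 in both libraries, with products under 100000000. TPM gives no detection limit. Coordinates and sequences came from the RefSeq annotation of Mmul_10, the build named in the methods. Coding sequences (the longest of each gene) were aligned globally.

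The rule named all 7 genes, every pathway list gene, the genes with the highest and lowest mean of each marker list, and the 3 genes nearest to *RTN4* and *OMG*. *SYT1*, *SLC17A6*, *NEFL*, *CRX*, *SAG* and *RCVRN* fall outside it or were named after their values were seen. The members and lists were chosen with earlier results of these data known. The alternatives tried were scaling (median of ratios, oligodendrocyte markers, or removal of the 10 most abundant genes), a 0.1 pseudocount, a geometric mean, other ranked gene sets, 500 nearest genes, a centred SD, and each library alone. Python 3.11, numpy 2.4.6, pandas 2.3.3 and matplotlib 3.10.9 were used, and the methods were tested on simulated data.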

Additional observations from a re-analysis of the deposited data

How the results depend on the processing

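No paired analysis was possible because a single condition was sequenced. Alternatives that keep both libraries gave 98 values, of which 78 were classed as unchanged. The class rested on the library spread for levels, percentiles and differences, and on a fixed fold limit for counts. Values classed as unchanged could therefore still differ in sign or in rank. The means of *RTN4RL2* and *RTN4* under the median of ratios, where *RTN4RL2* came first, were both classed so. Of the 43 that were differences between the libraries, 7 changed sign. These were *RTN4* and *LINGO1* (-0.09 without the 10 most abundant genes) and the medians of the other ligands (0.01 under the median of ratios and 1.11 under the oligodendrocyte scaling), of the other receptors, and of the reticulon group (0.27 and 1.43). Only *RTN4* and the other receptors were classed as reversed, and the rest of the 7 as unchanged. With Rep1 scaled to the oligodendrocyte markers of Rep2, which multiplies Rep1 by 5.30, the mean became 244 TPM for *RTN4*, 161 TPM for *OMG*, 41.5 TPM for *RTN4RL1*, 399 TPM for *RTN4RL2* and 37.3 TPM for *LINGO1*, so *RTN4RL2* came first, as it did under the median of ratios with 114 TPM against 98.6 TPM for *RTN4*. The difference of *RTN4* turned to 1.11 and the median of the other receptors and co-receptors to 0.49, with 1 gene at least 2-fold lower and 5 higher in Rep1. The mean of *LINGO1*, whose libraries were nearly equal, was 12.8 TPM under the median of ratios and 14.6 TPM without the 10 most abundant genes. Under the median of ratios 1 gene was at least 2-fold lower in Rep1. Among genes above 0 in both libraries, 6 of 10 pairs kept their order. When the SD was centred on the mean difference of the 200 nearest genes, 2 neighbouring pairs exceeded 1 SD, the second being *TNFRSF19* and *RTN4R* at 1.39. A pseudocount of 0.1 took the median of the genes at the *OMG* locus to -3.46, because *EVI2A* and *EVI2B* are low in Rep1. With 2 libraries, each lies equally far from their mean by construction, so leaving out either says nothing about stability. The geometric mean of 2 values always lies within 1 SD of their mean. Its values, which are among the 78 classed as unchanged, were therefore fixed by construction too.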

Other observations

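Markers of the other cell types of the nerve were mostly lower in Rep1, unlike *OMG*, *RTN4RL1* and *RTN4RL2*. All 5 oligodendrocyte precursor and lineage markers were lower in Rep1, by differences from -4.33 to -0.38 on the log2(TPM + 1) scale. Their median of -1.07 was the same as that of all genes, of which 75.9% were lower in Rep1. They ran from *OLIG1*, a transcription factor gene, at 11.8 TPM in Rep1 against 64.7 TPM in Rep2 to *CSPG4*, the NG2 proteoglycan gene, with 0 in Rep1 against 0.804 TPM in Rep2. The 6 astrocyte markers had a median of -2.17, from *GFAP* at 658 and 4331 TPM to *ALDH1L1* at 1.23 and 6.80 TPM. The 6 endothelial and pericyte markers had a median of -1.63, from *RGS5* at 47.7 and 160 TPM to *FLT1* at 2.56 and 4.95 TPM. The 5 fibroblast markers had a median of -2.93, from *DCN* at 995 and 10504 TPM to *COL3A1* at 100.2 and 411 TPM. Of the 6 microglia and macrophage markers, 5 were lower in Rep1, with a median of -1.98, from *C1QB* at 30.3 and 173 TPM to *CX3CR1* at 0.947 and 4.45 TPM. These medians stayed below 0 under median-of-ratios scaling, from -1.74 for fibroblasts to -0.49 for endothelial cells and pericytes, but with Rep1 scaled to the oligodendrocyte markers they ran from -0.52 to 0.70. The oligodendrocyte markers ran from *MBP*, at 43721 and 199595 TPM, to *OPALIN*, at 1.40 and 21.3 TPM.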
